A study of Mus musculus with 21 samples.

Results

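The early response of control mouse liver to surgery was described from 6 Affymetrix arrays, namely the 3 arrays labelled control d2 and the 3 labelled control d0, of 21 arrays in the study. Arrays were chosen by these labels, and 7320 genes were tested, each represented by the probe set with the highest mean over all arrays. Control mice were 9-month-old males of the strain given as FVB129P2/FVBNJ, and all mice had a 30% partial hepatectomy. Day 2 livers came from mice 263, 264 and 265. Day 0 samples were lobes removed at that operation, from mice 263, 265 and 303, so mice 263 and 265 gave both samples. For 1 comparison of responses, Mdr2-/- mice (KO, strain FVB129P2, males of the same age with the same operation) gave 3 livers on day 2 and 6 lobes on day 0. Mdr2 is the older name of Abcb4, the transporter that moves phospholipid into bile. Its level was 7.25 to 8.96 on the log2 scale on the 12 KO arrays, against 9.23 to 10.33 on the 9 control arrays. No sham-operated animals were analysed here, so resection cannot be told apart from anaesthesia, wounding and changed feeding.

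After part of the liver is removed, hepatocytes of the remaining lobes leave quiescence and replicate their DNA while still carrying out the organ's metabolic work. Cytokines from resident macrophages, interleukin 6 among them, also make hepatocytes secrete acute phase proteins through STAT3 and C/EBP transcription factors. Fatty acids released from adipose tissue reach the liver in the same period and are ligands of PPAR alpha, the receptor that drives fatty acid oxidation genes.

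The day 2 arrays differed in RNA quality. Control transcripts are read by probe sets at their 3' and 5' ends, and this difference grows as RNA shortens. The Gapdh difference (3' minus 5', log2) was 1.58, 0.07 and 9.5 in mice 263, 264 and 265 on day 2, against −0.1, 0.03 and 0.17 in mice 263, 265 and 303 on day 0. For beta-actin it was 3.91, 1.81 and 5.92 on day 2, against 1.67, 1.84 and 1.88 on day 0. Only mouse 264 on day 2 thus lay near the range of day 0 in both transcripts. The other 15 arrays of the study had 1 Gapdh difference above 1. The median standard deviation over genes was 0.475 in control day 2, against 0.214 in control day 0. Calls that were lost with mouse 264 as the only day 2 sample, whose spread is then taken from the other groups, are therefore named below; with 1 sample the errors are larger, so a lost call can have a difference of the same size. Values of a group are listed in ascending order of mouse number throughout, and all levels and differences are on the log2 scale.

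**Figure D1:**
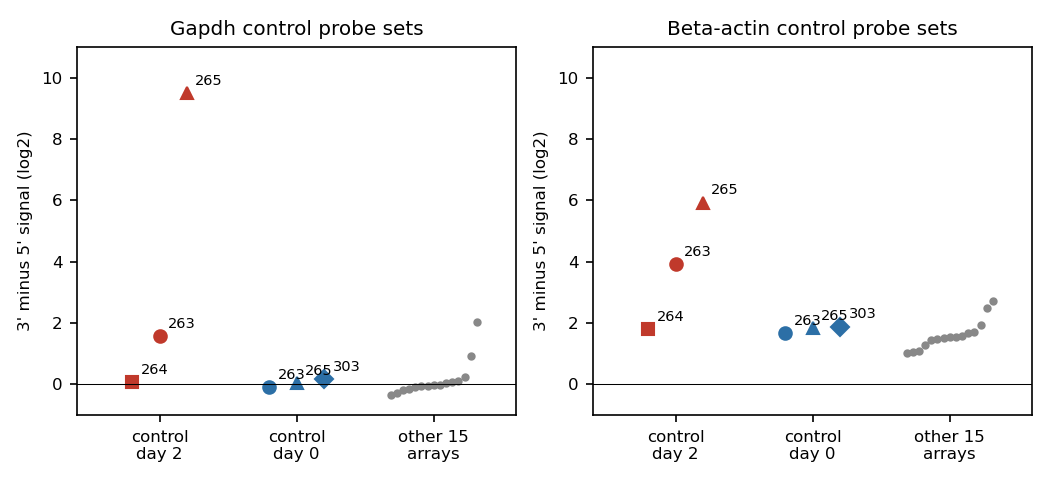
Difference between the 3' and 5' probe sets (log2) of Gapdh (left) and beta-actin (right) on each array of control day 2, control day 0 and the other 15 arrays. Each point is 1 array, numbered by mouse for the control groups. Mice 265 (9.5 for Gapdh) and 263 (1.58) on day 2 stand above all control day 0 arrays.

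Of 7320 genes, 696 (9.51%) were called, that is, had a limma adjusted p under 0.05, with 383 (5.23%) higher and 313 (4.28%) lower on day 2. Groups of 1882 genes (25.7%) did not overlap, 1115 (15.2%) of them higher and 767 (10.5%) lower on day 2. An unadjusted limma p under 0.05 was found for 1987 genes (27.1%). The median difference over all genes was 0.08. Centring each array on its median moved it to −0.04 and changed the split to 268 higher and 372 lower. These calls rest on a spread pooled over all 6 groups of the study. A fit of the 6 arrays alone called 27 genes (0.369%), and weights per array called 214 (2.92%). With mouse 264 as the only day 2 sample, 108 genes (1.48%) were called, 86 of them (1.17%) also with all arrays and in the same direction, 49 higher and 37 lower. Leaving out each of the 6 arrays in turn, 118 genes (1.61%) stayed called every time, 64 higher and 54 lower. Of these 118, 55 (31 higher, 24 lower) were also called with mouse 264 alone. Genes named in the text were chosen partly for a large change and partly for being called also with mouse 264 alone. Shares among them thus do not carry over to all called genes. Of the 70 called genes given with their values in the text, 29 stayed called without each array, and 11 were called in the fit of 6 arrays. Those 11 were S100a6, Prtn3, Slpi, Acnat2 and Gpm6a, which were higher, and Gsta2, Gstm6, Mme, Usp2, Per3 and Car1, which were lower. In bulk liver, a change in the number of cells of a type and a change in RNA per cell cannot be told apart.

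**Figure D2:**
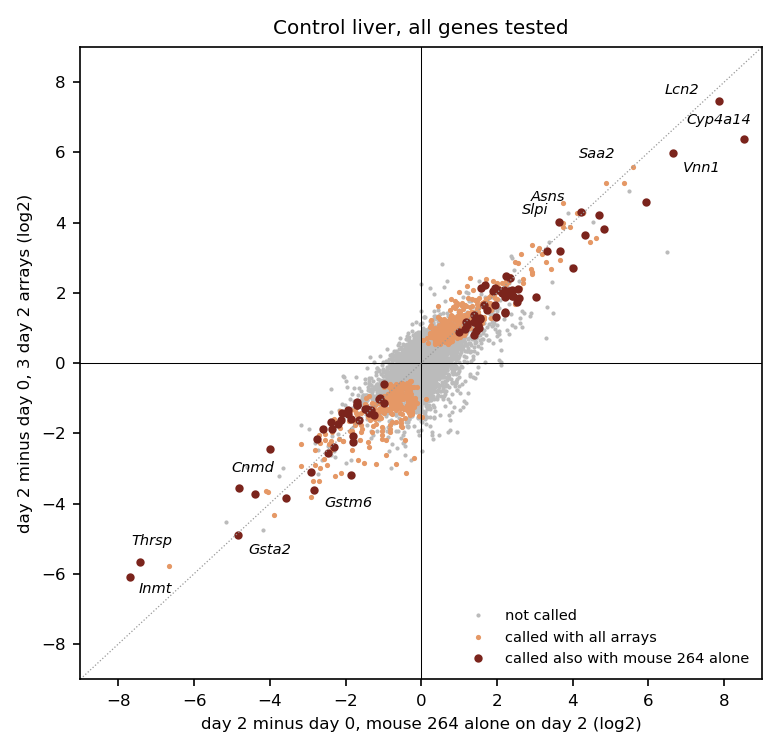
Difference between day 2 and day 0 (log2) for each of the 7320 genes, with all 3 day 2 arrays (vertical axis) against mouse 264 alone on day 2 (horizontal axis); both use the same 3 day 0 arrays. Grey points were not called, orange ones were called with all arrays, and the 86 dark red ones both ways, among them Lcn2 at 7.47 and 7.86.

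With all arrays, acute phase genes had the most members called higher of the 31 pathway lists. With mouse 264 alone they had 4, against 5 each for the fatty acid oxidation and ATF4 lists. Of 31 tested genes of metallothioneins and acute phase proteins, 14 were called higher, none was called lower and 17 did not pass. Their median difference was 1.32, against 0.08 over all genes, and 1.34 with mouse 264 alone. Relative to the day 0 mean, the list median was 0.85, 1.34 and 1.95 on day 2, against −0.02, −0.16 and 0.07 on day 0. Lcn2, lipocalin 2, which binds bacterial siderophores and starves microbes of iron, had the largest rise of all genes named here. Its level was 12.48, 14.0 and 14.35 on day 2, against 5.61, 3.06 and 9.75 on day 0. All 3 day 2 samples lay above all day 0 samples, which themselves spread widely. The difference was 7.47 ± 1.28 (SE, adjusted p = 0.00364), a 177-fold change, and it was called without each array. The serum amyloid gene Saa2, whose product replaces apolipoproteins on circulating HDL during inflammation, lay at 14.57, 14.91 and 15.24 on day 2, against 8.7, 7.6 and 11.65 on day 0. Day 2 samples were close together and day 0 samples were not, with mouse 303 highest. The difference was 5.59 ± 1.32 (adjusted p = 0.0167). Its neighbour in the family, Saa1, was at 14.8, 14.9 and 15.03 on day 2, against 10.34, 8.7 and 12.86 on day 0 (4.28 ± 1.02, adjusted p = 0.0175). Mouse 303 was again the highest of day 0, below all day 2 samples. Near-identical coding sequence in this family can let probes of 1 gene read another, so the Saa1 and Saa2 values may not be separate. Orm2, an orosomucoid that carries basic and neutral drugs in plasma, had 10.09, 11.69 and 14.05 on day 2, against 6.43, 6.04 and 7.95 on day 0 (5.14 ± 1.45, adjusted p = 0.0339). The metallothioneins Mt1 and Mt2, which bind zinc and copper, did not pass. Mt1 was at 14.35, 14.44 and 14.77 on day 2, against 13.14, 10.45 and 9.64 on day 0 (3.44 ± 1.15, adjusted p = 0.0646), and Mt2 differed by 4.31 ± 1.41 (adjusted p = 0.0607). Their groups did not overlap, and day 0 mouse 263 already stood high. With mouse as a random block the adjusted p was 0.0493 for Mt1 and 0.0467 for Mt2, and both passed without day 0 263. The calls of Saa1 (adjusted p up to 0.0881) and Saa2 (0.0799) were lost without day 2 265 and without day 0 265, and that of Orm2 (0.154) without these, day 0 263 or day 0 303. On mouse 264 alone, Saa1 (4.27, adjusted p = 0.205), Saa2 (5.59, 0.197) and Orm2 (4.88, 0.273) were not called, and Lcn2 was.

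Promoters of 3 of these genes and of Asns, described below, are shown because a motif for a factor named in the background lies in each. They are the RefSeq sequences of build GRCm38.p6 from 250 bases before to 50 after the annotated start, 5′ to 3′ on the gene's strand. Lcn2 is at chr2:32387690-32387989 (minus strand), Saa2 at chr7:46751583-46751882 (plus), Orm2 at chr4:63362199-63362498 (plus) and Asns at chr6:7693160-7693459 (minus). Capitals mark the C/EBP letters TTGCNCAA in the first 3 and the C/EBP-ATF letters TGATGNAAN in Asns, searched on both strands.
Lcn2: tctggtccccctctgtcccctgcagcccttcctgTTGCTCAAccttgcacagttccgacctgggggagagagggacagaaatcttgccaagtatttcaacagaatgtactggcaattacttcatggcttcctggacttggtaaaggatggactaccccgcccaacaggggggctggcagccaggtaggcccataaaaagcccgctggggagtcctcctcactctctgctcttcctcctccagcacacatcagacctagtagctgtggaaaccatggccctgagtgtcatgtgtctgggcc
Saa2: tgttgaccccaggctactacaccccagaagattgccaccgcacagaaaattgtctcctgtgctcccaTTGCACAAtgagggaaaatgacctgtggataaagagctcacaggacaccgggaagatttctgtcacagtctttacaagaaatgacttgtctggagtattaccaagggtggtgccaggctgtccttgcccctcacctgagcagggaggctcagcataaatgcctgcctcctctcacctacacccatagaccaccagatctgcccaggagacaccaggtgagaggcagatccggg
Orm2: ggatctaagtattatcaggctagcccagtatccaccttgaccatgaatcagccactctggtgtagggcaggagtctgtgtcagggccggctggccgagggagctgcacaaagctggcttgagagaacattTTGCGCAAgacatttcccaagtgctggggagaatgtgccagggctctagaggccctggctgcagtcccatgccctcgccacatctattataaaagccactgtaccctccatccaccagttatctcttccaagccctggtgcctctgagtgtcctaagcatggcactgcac
Asns: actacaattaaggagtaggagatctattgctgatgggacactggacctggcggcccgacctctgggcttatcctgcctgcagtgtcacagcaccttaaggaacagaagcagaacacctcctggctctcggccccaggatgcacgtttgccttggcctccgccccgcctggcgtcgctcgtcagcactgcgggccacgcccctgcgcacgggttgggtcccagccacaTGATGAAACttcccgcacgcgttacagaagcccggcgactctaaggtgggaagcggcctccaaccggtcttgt
Relative to the start, the match was at −216 in Lcn2, −183 in Saa2, −120 in Orm2 and −23 in Asns, and none of these promoters held both motifs. A gene was counted if any of its promoters held the letters. TTGCNCAA was in 5 of the 11 called acute phase genes with a promoter sequence (the 3 shown, Saa1 and Fga). It was in 3 of 14 that were not called, and in 3.37% of all 27025 genes with a promoter sequence. TGATGNAAN was in 2 of 4 called higher genes of the ATF4 list (Asns and Chac1). It was in 7 of 17 that were not called, and in 4.5% of genes. A further 5 motifs were searched in the same way. The STAT3 letters TTCNNNGAA were in 3 of the same 11 acute phase genes, in 3 of 14 that were not called, and in 9.55% of genes. The D-box letters TTANGTAA were in 1 of 3 called clock genes, Per3, in 0 of 13 that were not called, and in 2.72% of genes. For the E-box CACGTG these were 0 of 3, 3 of 13 and 8.09%. The PPAR element, AGGTCA then any base then AGGTCA, was in 0 of 2 called genes with a sequence. It was in 0 of 22 that were not called, and in 0.0481% of genes. The antioxidant element TGACNNNGC was in 1 of 10 called glutathione genes, in 5 of 13 that were not called, and in 14.0% of genes. These windows are short, and a missing match says only that the letters are not there.

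The next 3 S100 genes, Slpi and Prtn3 were also called higher on day 2; they were named for their size or their place in a marker list, and no list of S100 genes or antiproteases was tested. S100a6, which binds annexins and marks proliferating cells in several tissues, was at 6.96, 7.94 and 7.51 on day 2, against 3.48, 3.17 and 3.1 on day 0. The groups lay far apart, and since every day 0 value was at or under 4, where signal is near background, the difference of 4.22 ± 0.67 (adjusted p = 0.00262) is a lower bound on its size. Slpi, the secretory leukocyte protease inhibitor, had 9.11, 8.85 and 9.7 on day 2, against 6.32, 4.3 and 5.0 on day 0 (4.01 ± 0.54, adjusted p = 0.000696). S100a8 and S100a9, the 2 chains of calprotectin, are abundant in neutrophils. S100a8 lay at 7.45, 8.77 and 10.85 on day 2, against 5.69, 4.41 and 4.99 on day 0 (3.99 ± 1.0, adjusted p = 0.0208). S100a9 lay at 6.95, 8.19 and 9.9 on day 2, against 5.18, 3.03 and 4.0 on day 0 (4.28 ± 1.04, adjusted p = 0.0184). Mouse 265 was highest on day 2 in both. Prtn3, the neutrophil serine protease proteinase 3, was at 7.46, 7.8 and 7.49 on day 2, against 2.41, 2.65 and 2.31 on day 0, which makes 5.13 ± 1.08 (adjusted p = 0.00987) a lower bound. Of 10 neutrophil markers on the array, S100a8 and S100a9 were the ones tested. The other 8, among them the granule genes Camp, Ltf, Mpo and Elane, did not exceed 2.75 on any of the 6 arrays, except Ngp at 5.33 on day 2, its highest value. The log2 of the summed linear signal of all 10 was 8.41 to 11.49 on day 2, against 6.13 to 7.0 on day 0, and its part in the acute phase result was not tested. Calls of S100a8 (adjusted p up to 0.107) and S100a9 (0.09) were lost without day 2 265, day 0 265 or day 0 303. S100a9 also lost its call with the mouse as a fixed block (adjusted p = 0.0573), a fit that gives mouse 264 no weight because it has 1 sample. S100a6, Slpi and Prtn3 were called without each array. S100a6 and Slpi were also called with mouse 264 alone, and Prtn3 (5.34, adjusted p = 0.125), S100a8 (0.203) and S100a9 (0.193) were not.

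**Figure D3:**
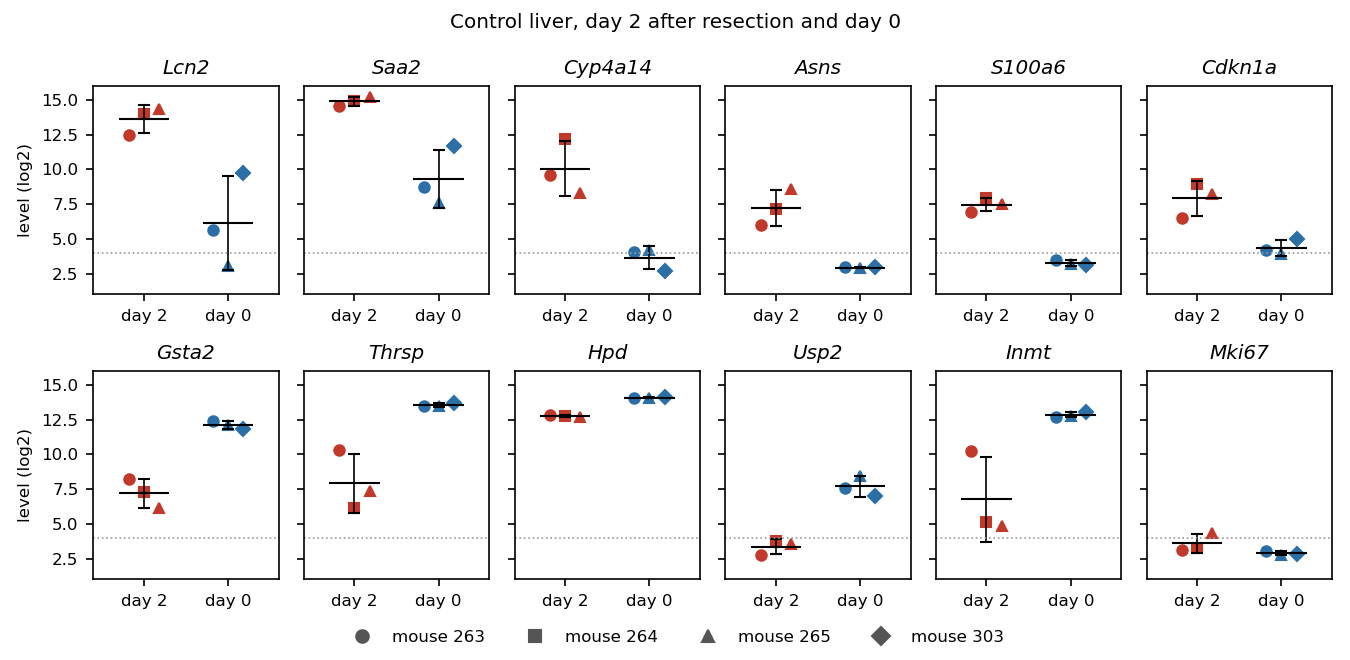
Level (log2) of 12 genes in control liver on day 2 (red) and day 0 (blue), with each point 1 mouse, the line the mean and the bar 1 SD (n = 3). The dotted line at log2 4 marks values near background. Upper row genes are higher on day 2, lower row genes are lower except Mki67, which lay between 3.14 and 4.35 on day 2 and was not called.

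A few targets of PPAR alpha rose strongly, while most fatty acid oxidation genes did not pass the test. Of 31 tested genes of fatty acid oxidation, 4 were called higher, 1 lower and 26 did not pass, with a median of −0.05, and 0.55 with mouse 264 alone, where 5 were called higher. Those higher were Cyp4a14, Vnn1, Pdk4 and the carnitine carrier Slc25a20. Cyp4a14, a fatty acid omega-hydroxylase, was at 9.61, 12.19 and 8.33 on day 2, against 4.05, 4.21 and 2.71 on day 0. The highest day 2 value was that of mouse 264, and no day 0 value came near the lowest. The difference was 6.39 ± 1.22 (adjusted p = 0.00561). Vnn1, the pantetheinase that recycles vitamin B5 from coenzyme A breakdown, had 6.93, 11.06 and 13.21 on day 2, against 5.24, 4.02 and 4.01 on day 0 (5.98 ± 1.23, adjusted p = 0.00862). Pdk4, which inhibits pyruvate dehydrogenase and so spares glucose, was at 5.91, 8.85 and 9.73 on day 2, against 5.79, 3.78 and 3.99 on day 0 (3.64 ± 0.83, adjusted p = 0.0137). In both, mouse 263 was the lowest of day 2, and for Pdk4 it was only just above its own day 0 value. Outside that list, Acnat2, a peroxisomal acyltransferase that joins fatty acids to amino acids, was at 9.2, 9.97 and 9.34 on day 2, against 6.8, 5.62 and 6.52 on day 0 (3.19 ± 0.45, adjusted p = 0.00122). Apoa4, an apolipoprotein of triglyceride-rich particles and the 1 called gene among 24 of lipid uptake and droplets, rose by 2.68 ± 0.59 (adjusted p = 0.0122). Echs1, the mitochondrial enoyl-CoA hydratase of beta-oxidation, was the list member that fell, at 10.26, 10.41 and 9.12 on day 2, against 11.15, 11.36 and 11.32 on day 0 (−1.35 ± 0.27, adjusted p = 0.00763). Cyp4a14, Acnat2 and Echs1 were called without each array. The call of Vnn1 (adjusted p = 0.0512) was lost without day 2 265, that of Pdk4 (up to 0.0696) without day 2 265, day 0 265 or day 0 303, and that of Apoa4 (0.0568) without day 0 265. With the mouse as a fixed block, Vnn1 had adjusted p = 0.0507 and Pdk4 0.115. With mouse 264 alone, Vnn1 (6.64), Pdk4 (4.33), Cyp4a14 and Acnat2 were called. Echs1 (−0.87, adjusted p = 0.149) and Apoa4 (3.43, 0.0501) were not.

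A few fatty acid synthesis genes were lower. Of 21 fatty acid synthesis genes, 4 were called lower, none higher and 17 did not pass, with a median of −0.98, and −0.78 with mouse 264 alone, where 1 was called. The list median against the day 0 mean was −0.51, −0.78 and −1.58 on day 2, with mouse 265 lowest, against 0.18, −0.17 and 0.05 on day 0. Thrsp (Spot 14), a nuclear protein needed for full lipogenic enzyme expression, was at 10.28, 6.13 and 7.33 on day 2, against 13.51, 13.46 and 13.73 on day 0. Every day 2 sample was below the tight day 0 group, by 5.65 ± 1.18 on average (−5.65, adjusted p = 0.00933), and the call held without each array. Fasn, fatty acid synthase, lay at 8.77, 7.99 and 6.95 on day 2, against 10.8, 9.1 and 11.22 on day 0 (−2.47 ± 0.62, adjusted p = 0.0205), and lost its call (adjusted p up to 0.1) without day 2 265, day 0 263 or day 0 303, and with mouse 264 alone (0.201). In cholesterol synthesis, 2 of 20 genes were called higher and none lower (median −0.08, and −0.51 with mouse 264 alone). The list median against the day 0 mean was 0.32, −0.51 and 0.15 on day 2, against 0.29, 0.02 and −0.31 on day 0. The 2 called genes were Sqle, squalene epoxidase (2.42 ± 0.6, adjusted p = 0.0201), and Insig2, which holds back the activation of SREBP (1.45 ± 0.37, adjusted p = 0.0212). Sqle (adjusted p up to 0.101) was not called without day 2 265 or day 0 303. Insig2 (0.106) was not called without these or day 0 265, nor with the mouse as a fixed block (0.125). Mouse 264 alone gave 1.28 for Sqle and 1.35 for Insig2, and neither call was kept. Of 27 glycogen and glucose genes, 3 were called higher and 5 lower (median −0.16), and with mouse 264 alone 1 was called higher and none lower (median −0.45). Gys2, liver glycogen synthase, was at 7.93, 8.7 and 8.35 on day 2, against 9.99, 10.25 and 9.49 on day 0 (−1.58 ± 0.37, adjusted p = 0.0149). The branching enzyme Gbe1 (−1.31 ± 0.27, adjusted p = 0.00763) and Ugp2, which makes the UDP-glucose that glycogen is built from (−1.31 ± 0.28, adjusted p = 0.00933), were also lower. Igfbp1, an insulin-repressed binding protein that is an immediate early gene of regenerating rodent liver, was at 10.51, 12.67 and 11.79 on day 2, against 9.74, 8.3 and 6.56 on day 0 (3.46 ± 1.03, adjusted p = 0.0418). Gbe1 was called without each array. Gys2 (adjusted p up to 0.0701) was not called without day 2 265 or day 0 265, Ugp2 (0.0512) without day 2 265, and Igfbp1 (0.177) without day 2 264, day 2 265, day 0 265 or day 0 303; Igfbp1 was also lost with the mouse as a fixed block (adjusted p = 0.31). None of Gys2 (0.294), Gbe1 (0.119), Ugp2 (0.126) and Igfbp1 (0.164) was called with mouse 264 alone.

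Some genes of amino acid synthesis were higher, and some of amino acid breakdown, given next, were lower. ATF4 is the transcription factor that induces amino acid synthesis genes when amino acids run short or the endoplasmic reticulum is stressed. Of 25 tested genes of that response, 4 were called higher and 1 lower, with a median of 0.28, and 5 were called higher with mouse 264 alone, with a median of 0.55. Asns, asparagine synthetase, had 5.99, 7.14 and 8.57 on day 2, against 2.96, 2.87 and 2.94 on day 0. All day 0 values were near background, so 4.31 ± 0.7 (adjusted p = 0.00313) is a lower bound for this probe set, and it was called without each array. The other Asns probe set was at 2.4, 6.9 and 7.54 on day 2, against 2.38, 2.34 and 2.34 on day 0 (3.26). Mouse 263 stayed near background there. Aldh18a1, the first enzyme of proline synthesis from glutamate, was at 4.81, 5.19 and 6.94 on day 2, against 2.5, 2.69 and 2.44 on day 0 (at least 3.1 ± 0.82 for this probe set, adjusted p = 0.0258). Its other probe sets differed by only 0.05, 0.52, 0.44 and 0.59. Psat1, of serine synthesis, was at 3.22, 5.84 and 5.03 on day 2, against 2.91, 2.75 and 2.79 on day 0 (1.88 ± 0.46, adjusted p = 0.0192), with mouse 263 near background too. Chac1, which degrades glutathione, differed by 1.43 ± 0.37 (adjusted p = 0.0239). The last 3 lost their calls without day 2 265, day 0 265 or day 0 303, Aldh18a1 also without day 0 263 and Chac1 also without day 2 264 (adjusted p up to 0.125, 0.0756 and 0.081). They were also lost with the mouse as a fixed block (0.0552, 0.0828 and 0.17). Aldh18a1 (adjusted p = 0.295) was lost with mouse 264 alone, and Psat1 and Chac1 were called.

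Of 33 genes of the urea cycle and amino acid breakdown, 8 were called lower, none higher and 25 did not pass. The median was −0.81, and −1.07 with mouse 264 alone, where 5 were called. Against the day 0 mean the list median was −0.34, −1.07 and −1.0 on day 2, compared with −0.05, −0.04 and 0.09 on day 0. Hpd, the dioxygenase of tyrosine breakdown, was at 12.8, 12.77 and 12.68 on day 2, against 14.04, 14.09 and 14.13 on day 0. Its groups were tight and apart, and the difference of −1.34 ± 0.2 (adjusted p = 0.00192) was called without each array and was −1.32 with mouse 264 alone. Otc, ornithine transcarbamylase of the urea cycle, was at 12.25, 10.62 and 10.85 on day 2, against 12.63, 12.49 and 12.57 on day 0 (−1.32 ± 0.32, adjusted p = 0.0184). Gnmt, the glycine methyltransferase that uses up excess S-adenosylmethionine, was at 13.53, 12.46 and 11.19 on day 2, against 13.87, 13.65 and 13.9 on day 0 (−1.41 ± 0.39, adjusted p = 0.0312). Mouse 263 was nearest to day 0 in both. Otc (adjusted p up to 0.0822) and Gnmt (0.142) were not called without day 2 265 or without any 1 of the day 0 arrays, nor with the mouse as a fixed block (0.101 and 0.0816). Otc was called with mouse 264 alone and Gnmt was not (0.0511).

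With all arrays, detoxification genes had the most members called lower of the 31 pathway lists. The list of urea cycle and amino acid breakdown had more with mouse 264 alone (5, against 4 here) and with array weights (7, against 6). Of 28 glutathione transferases and NRF2 targets, 11 were called lower, none higher and 17 did not pass. The median was −1.02, and −0.51 with mouse 264 alone. Mouse 265, whose RNA was the most 3'-biased, had the lowest list median, with −0.64, −0.51 and −1.4 on day 2, against 0.16, −0.02 and −0.11 on day 0. Glutathione transferases join glutathione to electrophiles, and the 4 with the largest change held their calls without each array. Gsta2 was at 8.21, 7.26 and 6.14 on day 2, against 12.4, 12.09 and 11.82 on day 0 (−4.9 ± 0.73, adjusted p = 0.00184). Gstm6 was at 5.73, 6.39 and 4.69 on day 2, against 9.51, 9.32 and 8.82 on day 0 (−3.61 ± 0.47, adjusted p = 0.000696). Both fell in every sample, and their differences with mouse 264 alone were −4.84 and −2.83. Gstm1, a mu-class enzyme, was at 11.35, 12.05 and 8.79 on day 2, against 14.08, 14.07 and 13.59 on day 0 (−3.18 ± 0.55, adjusted p = 0.00364), and −1.86 with mouse 264 alone, also called. Gstm3 differed by −3.21 ± 0.58 (adjusted p = 0.00503), and by −2.28 with mouse 264 alone, which was not called. The Gstm genes are close paralogs whose probes can share signal, so these falls may not be independent.

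Cytochrome P450 genes of families 1 to 3 followed, with 4 of 26 called lower, none higher and 22 not passing (median −0.5, and −0.39 with mouse 264 alone, where 1 was called). Cyp2f2, a naphthalene hydroxylase of periportal hepatocytes, was at 12.74, 11.89 and 10.21 on day 2, against 13.66, 13.82 and 13.59 on day 0 (−2.08 ± 0.44, adjusted p = 0.00933). Cyp2c23, an arachidonic acid epoxygenase, fell by 1.93 (−1.93 ± 0.37, adjusted p = 0.00561). Cyp2g1 was at 2.38, 2.35 and 2.37 on day 2, near background, against 5.11, 3.78 and 4.69 on day 0, with a difference of −2.16 ± 0.37 (adjusted p = 0.00364) and 1 day 0 value also near background. Alas1, the first enzyme of heme synthesis and a member of the iron handling list, was at 8.97, 9.46 and 9.45 on day 2, against 12.04, 10.84 and 11.66 on day 0 (−2.22 ± 0.49, adjusted p = 0.0124). These 4 were called without each array, and with mouse 264 alone Cyp2f2 was, but not Cyp2g1 (adjusted p = 0.0648), Cyp2c23 (−1.04, 0.15) or Alas1 (0.196). In bile acid synthesis and transport, 5 of 26 genes were called lower and none higher (median −0.49, and −0.43 with mouse 264 alone, where none was called). Nr0b2, the nuclear receptor SHP that represses bile acid synthesis, was at 8.36, 8.08 and 8.74 on day 2, against 9.74, 9.73 and 9.94 on day 0 (−1.41 ± 0.35, adjusted p = 0.0205; up to 0.0741 without day 0 265 or day 0 303). Cyp7a1, which starts the classic route from cholesterol to bile acids, was at 8.31, 8.49 and 3.24 on day 2, against 7.99, 8.08 and 10.74 on day 0. Its groups overlapped and it was not called (−2.26 ± 1.21, adjusted p = 0.237).

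Some mitochondrial respiration genes were lower, by smaller amounts. Over all genes, 55.6% had a positive difference. Of 42 oxidative phosphorylation genes, 9 were called lower, 1 higher and 32 did not pass, and 36 had a negative difference (median −0.35, and −0.36 with mouse 264 alone, where 1 was called). Atp5b, the catalytic beta subunit of ATP synthase, was at 11.2, 11.9 and 10.81 on day 2, against 12.5, 12.55 and 12.55 on day 0 (−1.23 ± 0.23, adjusted p = 0.00556), called without each array. Sdhb, the iron-sulfur subunit of succinate dehydrogenase, was at 11.63, 10.68 and 9.64 on day 2, against 12.08, 11.96 and 12.17 on day 0 (−1.42 ± 0.35, adjusted p = 0.0192). The complex III subunits Uqcrc1 (−1.4 ± 0.33, adjusted p = 0.0156) and Cyc1 (−1.07 ± 0.23, adjusted p = 0.0109) were lower too. Calls of Sdhb (adjusted p up to 0.0863) and Uqcrc1 (0.0644) were lost without day 2 265, day 0 265 or day 0 303, and of Cyc1 (0.0531) without day 2 265. With the mouse as a fixed block Sdhb (0.0783) and Uqcrc1 (0.0644) were lost. Sdhb was called with mouse 264 alone, and Atp5b (−0.63, adjusted p = 0.253), Uqcrc1 (−0.99, 0.159) and Cyc1 (−0.67, 0.312) were not.

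**Figure D4:**
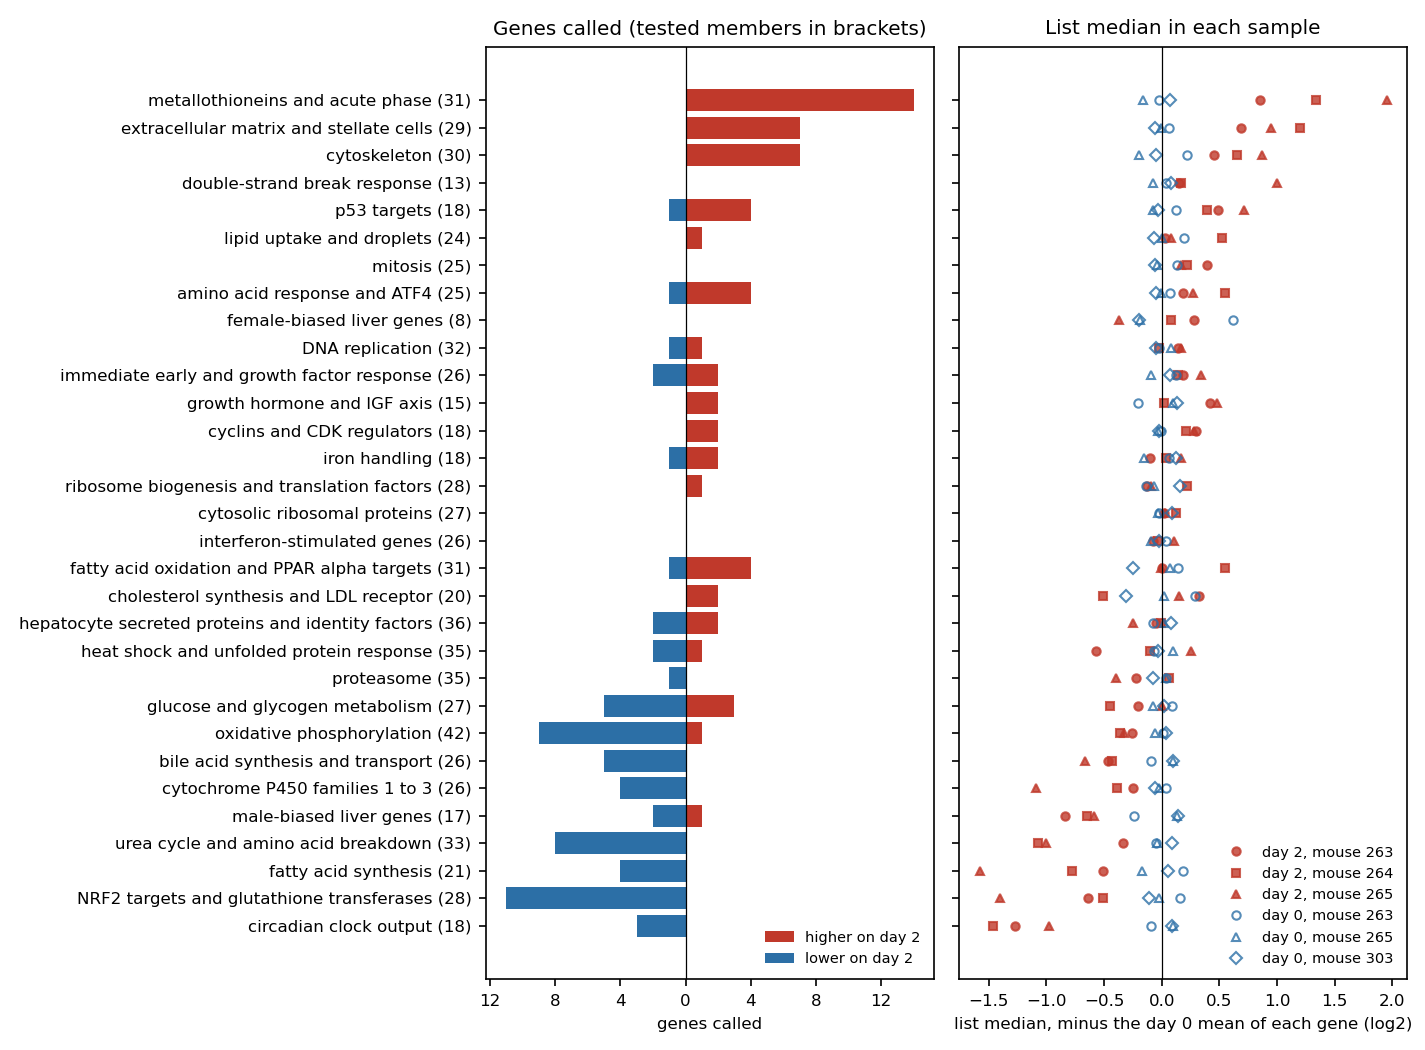
Left, number of genes called higher (red) or lower (blue) on day 2 in each of 31 pathway lists, with the number tested in brackets. Right, the list median of each sample after subtracting each gene's day 0 mean (log2), with filled red points for day 2 and open blue points for day 0; the acute phase median is 0.85, 1.34 and 1.95 on day 2.

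Clock genes had the lowest median of the 31 pathway lists. Of 18 tested clock and clock output genes, 3 were called lower, none higher and 15 did not pass (median −1.32, and −1.46 with mouse 264 alone, where none was called). Against the day 0 mean the list median was −1.27, −1.46 and −0.98 on day 2, compared with −0.09, 0.1 and 0.09 on day 0. All 3 day 2 livers thus lay below the day 0 samples, and the part of RNA quality was not tested. Usp2, a rhythmic deubiquitinase, was at 2.75, 3.79 and 3.55 on day 2, against 7.61, 8.46 and 7.0 on day 0, so −4.33 ± 1.09 (adjusted p = 0.0212) is a bound for this probe set. Its other probe set differed by −2.96. Per3, of the period family of clock repressors, was at 3.94, 2.9 and 3.24 on day 2, against 6.48, 7.21 and 7.31 on day 0 (a bound of −3.64 ± 1.03 for this probe set, adjusted p = 0.0339). Its other probe sets, mostly near background, differed by −0.55 and −0.74. Cry2, a cryptochrome repressor, was at 5.79, 5.83 and 5.41 on day 2, against 6.96, 7.11 and 7.13 on day 0 (−1.39 ± 0.41, adjusted p = 0.0387). In these 3 the groups were well apart. Dbp and Arntl, chosen after their values were seen, did not pass in the fit of all arrays. Dbp, a clock-driven transcription factor, was at 8.77, 6.43 and 5.98 on day 2, against 10.68 to 12.06 on day 0 (−4.52 ± 1.64, adjusted p = 0.0873). Arntl (Bmal1), an activator of the clock whose rhythm is opposite to that of Dbp, was at 5.3, 5.3 and 5.88 on day 2, against 2.79, 2.35 and 3.4 on day 0 (2.65 ± 1.01, adjusted p = 0.103, and 0.0414 in the fit of 6 arrays). The sources used here do not give the hour of sampling, so day after surgery and time of day cannot be told apart. Calls were lost for Usp2 (adjusted p up to 0.0856) without day 2 265, day 0 263 or day 0 265, for Cry2 (0.134) without day 2 265 or any 1 day 0 array, and for Per3 (0.105) without any 1 array but day 2 263. With the mouse as a fixed block, Per3 (0.0679) and Cry2 (0.057) were lost.

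**Figure D5:**
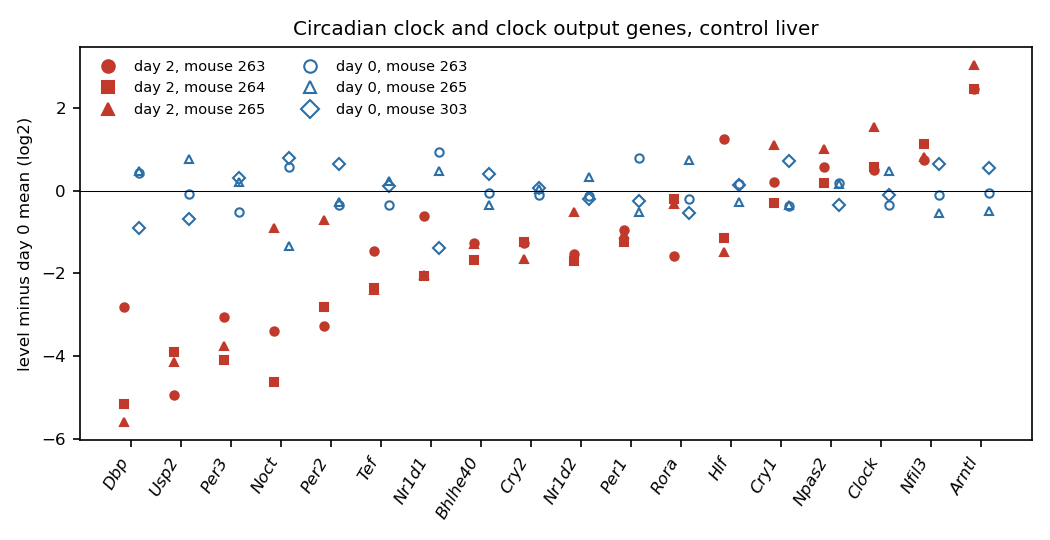
Level of each of 18 clock and clock output genes minus its day 0 mean (log2) in control liver, with filled red points for day 2 and open blue points for day 0, each point 1 mouse. Genes run from the lowest to the highest mean on day 2, with Dbp lowest and Arntl highest.

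Genes of cell division were mostly not called on day 2, against 9.51% called over all genes. The share of all genes with an unadjusted p under 0.05 was 27.1%. Of 25 tested mitosis genes, 0 were called in either direction by limma, 3 had an unadjusted p under 0.05 and 1 was called with the mouse as a random block (median 0.3, and 0.22 with mouse 264 alone), and 13 of them were at or under log2 4 on every day 2 array, compared with 16 on every day 0 array. In 22 of the 25 the difference was positive, against 55.6% of all genes. In 8 the groups did not overlap, all higher on day 2, against 15.2% of all genes. Mki67, a marker of cycling cells, lay at 3.14, 3.27 and 4.35 on day 2, against 3.08, 2.78 and 2.83 on day 0 (0.69 ± 0.54, adjusted p = 0.431). Cdk1, the kinase that starts mitosis, was at or below 3.83 in all 6 samples (0.62 ± 0.66, adjusted p = 0.575). These levels are near background, so a small rise would not be seen. Such genes could pass the filter through other groups, and their error is pooled over those groups too. For Cdk1 the standard deviation was 0.257 on day 2 and 0.471 on day 0, against 1.99 in control day 6. A missing call therefore says little about such a gene. Of 32 DNA replication genes, 1 was called higher and 1 lower (median 0.18, and −0.02 with mouse 264 alone). Mcm7, a subunit of the replicative helicase, was at 7.91, 7.71 and 8.51 on day 2, against 6.78, 6.73 and 6.85 on day 0 (1.26 ± 0.25, adjusted p = 0.00721). Its 4 probe sets differed by 1.26, 0.84, 0.25 and −0.32, and it was not called on their mean. Tk1, thymidine kinase of the nucleotide salvage pathway, was at 6.21, 4.68 and 4.22 on day 2, against 6.57, 7.19 and 7.89 on day 0 (−2.18 ± 0.67, adjusted p = 0.048), and lost its call (adjusted p up to 0.187) without any 1 array but day 2 263. Cyclins and their regulators had 2 of 18 called higher. E2f8, a repressor of E2F targets that limits the number of liver cell divisions and promotes polyploidy in mouse, was at 6.22, 6.99 and 8.23 on day 2, against 4.96, 5.12 and 5.21 on day 0 (2.05 ± 0.41, adjusted p = 0.00654), called without each array and with mouse 264 alone. Cdkn1a, the cyclin-dependent kinase inhibitor p21, was at 6.52, 8.97 and 8.26 on day 2, against 4.18, 3.89 and 5.01 on day 0 (3.56 ± 0.99, adjusted p = 0.033). Ccnd1, cyclin D1, which carries hepatocytes through G1, was at 8.63, 8.82 and 5.75 on day 2, against 8.78, 8.49 and 8.42 on day 0 (−0.83 ± 0.57, adjusted p = 0.361). Only mouse 265 was low, and without it the sign turned (0.16). Of 18 p53 targets, 4 were called higher and 1 lower (median 0.43, and 0.39 with mouse 264 alone, where none was called). Ddit4, an inhibitor of mTORC1, was higher (1.85 ± 0.46, adjusted p = 0.0197) and Gadd45a, a damage-inducible growth arrest gene, lower (−2.4 ± 0.6, adjusted p = 0.0204). Calls of Cdkn1a (adjusted p up to 0.112) were lost without any 1 array but day 2 263, of Ddit4 (0.103) without day 2 265, day 0 265 or day 0 303, and of Gadd45a (0.0791) without day 2 265, day 0 263 or day 0 265. With the mouse as a fixed block, Tk1 (0.218) and Ddit4 (0.0613) were lost. With mouse 264 alone Mcm7 (adjusted p = 0.197), Tk1 (0.205), Cdkn1a (0.125), Ddit4 (0.193) and Gadd45a (−1.38, 0.49) were not called. Of 13 double-strand break genes, 0 were called by limma, 5 had an unadjusted p under 0.05, and 1 was called higher and 1 lower with the mouse as a fixed block (median 0.45, and 0.17 with mouse 264 alone), with list medians of 0.15, 0.17 and 1.0 on day 2, so the level in mouse 265 set the list's.

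Some matrix and cytoskeleton genes were higher. Of 29 matrix and stellate cell genes, 7 were called higher, none lower and 22 did not pass (median 0.96, and 1.2 with mouse 264 alone, where none was called). The list median against the day 0 mean was 0.69, 1.2 and 0.95 on day 2, compared with 0.06, −0.01 and −0.06 on day 0. Col3a1, a fibrillar collagen, was at 8.75, 9.48 and 9.02 on day 2, against 6.54, 5.71 and 7.43 on day 0 (2.52 ± 0.65, adjusted p = 0.0224). Col4a1, of basement membrane collagen, was at 7.69, 8.82 and 10.02 on day 2, against 7.15, 5.77 and 6.7 on day 0 (2.3 ± 0.58, adjusted p = 0.0205). Vim, vimentin, the intermediate filament of stellate and other mesenchymal cells, was at 9.47, 10.29 and 9.7 on day 2, against 8.1, 7.11 and 7.84 on day 0 (2.14 ± 0.54, adjusted p = 0.0212). In all 3, every day 2 sample was above every day 0 sample. Of 30 cytoskeleton genes, 7 were called higher and none lower (median 0.51, and 0.66 with mouse 264 alone, where 1 was called, S100a6). Tubb6, a beta tubulin, was at 6.24, 6.62 and 5.97 on day 2, against 3.24, 3.23 and 4.58 on day 0 (2.59 ± 0.63, adjusted p = 0.0184). Of 7 mesothelium markers on the array, 3 were tested and 2 were called higher. Besides Slpi that was Gpm6a, a membrane glycoprotein, at 6.18, 5.48 and 5.64 on day 2, against 3.58, 2.55 and 2.63 on day 0 (at least 2.85 ± 0.8 for this probe set, adjusted p = 0.0336). Its other probe set, near background, differed by 0.55. Of the 7 markers, 4 never exceeded log2 4, and Slpi alone lay at 8.85 to 9.7 on day 2 and 4.3 to 6.32 on day 0. The log2 of the summed signal of the 7 was 9.1 to 9.85 on day 2, against 5.82 to 6.94 on day 0. That of 15 endothelial markers was 10.98 to 11.17 on day 2, against 10.92 to 11.14 on day 0, and their part in these results was not tested. Calls of Col3a1 (adjusted p up to 0.107) and Tubb6 (0.0775) were lost without day 2 265, day 0 263 or day 0 265. Those of Col4a1 (0.106) and Vim (0.0961) were lost without day 2 265, day 0 265 or day 0 303, and that of Gpm6a (0.114) without these or day 2 263. With the mouse as a fixed block Col4a1 (0.0846) and Gpm6a (0.12) were lost, and with mouse 264 alone Gpm6a (0.345).

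Other cell types were checked through their markers. Of 10 tested hepatocyte markers, none was called by limma and 5 had an unadjusted p under 0.05, against 27.1% of all genes. The log2 of their summed signal was 17.23 to 17.43 on day 2, against 17.6 to 17.65 on day 0. Of 15 Kupffer cell and macrophage markers, Cd163, the hemoglobin scavenger receptor, was called higher, at 6.84, 7.87 and 6.95 on day 2, against 6.02, 6.36 and 5.34 on day 0 (1.31 ± 0.33, adjusted p = 0.0216). That call was lost (adjusted p up to 0.109) without day 2 264, day 2 265 or day 0 303, and with the mouse as a fixed block (0.0704). Of 5 erythroid markers tested, 2 were called lower. Car1, an erythroid carbonic anhydrase, was at 3.72, 3.7 and 3.35 on day 2, against 6.02, 6.59 and 5.88 on day 0 (a bound of −2.57 ± 0.39, adjusted p = 0.00184). Klf1, the master transcription factor of red cell precursors, was at 3.47, 3.05 and 3.43 on day 2, against 4.58, 4.75 and 5.36 on day 0 (a bound of −1.58 ± 0.21, adjusted p = 0.000696). Both were called without each array and with mouse 264 alone. Summed marker signal was also higher on day 2, with no overlap, for 3 further cell types in which no gene was called. It was 8.23 to 9.3 on day 2, against 7.48 to 8.15 on day 0, for 10 cholangiocyte markers. For 6 adipocyte markers it was 7.72 to 8.18 on day 2, against 6.96 to 7.34 on day 0. For 8 gut epithelium markers it was 10.82 to 11.52 on day 2, against 9.96 to 10.67 on day 0. These sums rest on few genes, since 7 cholangiocyte, 3 adipocyte and 6 gut epithelium markers never exceeded log2 4. Fabp2, also a gene of lipid uptake, made up most of the gut sum, with a mean of 11.09 on day 2 and 10.34 on day 0. It was not called (adjusted p = 0.316), and the 3 tested gut markers had a median difference of −0.04. In the pancreas list 1 gene was tested, the elastase Cela1, which was lower (−1.87 ± 0.49, adjusted p = 0.0245; up to 0.116 without any 1 array but day 2 263, and 0.106 with the mouse as a fixed block). The other 9 pancreas markers on the array did not exceed log2 4. All 11 muscle markers and 10 of 11 T and NK cell markers on the array also stayed at or under log2 4 on all 6 arrays.

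Some lists not counted above had shares called above the 9.51% over all genes. Male-biased liver genes had 1 called higher and 2 lower of 17, and iron handling 2 and 1 of 18. Immediate early and growth factor response had 2 and 2 of 26, growth hormone and IGF axis 2 and 0 of 15, and hepatocyte secreted proteins and identity factors 2 and 2 of 36. The lists given next had shares at or below 9.51%. Of 26 interferon-stimulated genes and 27 cytosolic ribosomal protein genes, 0 were called by limma, with medians of 0.0 and 0.02. At an unadjusted p under 0.05 there were 2 interferon-stimulated and 7 ribosomal protein genes, against 27.1% of all genes. With the mouse as a fixed block 1 ribosomal protein gene was called. Those medians were −0.03 and 0.12 with mouse 264 alone. Of 35 proteasome genes 1 was called lower, and of 35 heat shock and unfolded protein genes 1 was called higher and 2 lower.

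The response of control liver was also set against that of KO liver, as the difference between day 2 minus day 0 in control and the same in KO. No gene passed (0 of 7320 by limma, 0.0%), and 1070 (14.6%) had an unadjusted p under 0.05. In KO alone, day 2 against day 0 gave 0 genes (0.0%) by limma and 439 (6.0%) at an unadjusted p under 0.05, and 140 (1.91%) with array weights. The unadjusted count in control was 1987 (27.1%). Asns differed by 4.31 in control and 0.03 in KO, where it was near background on both days, a difference of responses of 4.28 (adjusted p = 0.0839). For Hpd these were −1.34 in control and 0.2 in KO (−1.53, adjusted p = 0.0733), and for Slpi 4.01 and 0.16 (3.85, adjusted p = 0.0733), with a KO mean of 11.44 already on day 0. Cyp4a14 differed by 6.39 in control and 0.6 in KO (5.78, adjusted p = 0.151) and Thrsp by −5.65 in control and −0.46 in KO (−5.19, adjusted p = 0.185). In other genes the responses were nearer. For Orm2 they were 5.14 in control and 4.16 in KO (0.98, adjusted p = 0.833), and for Prtn3 5.13 and 3.97 (1.16, adjusted p = 0.724). KO mouse 258 stood apart on day 0 in both. It was at 12.24 for Orm2, against 5.46 to 8.13 in the other KO mice, and at 7.65 for Prtn3, against 2.27 to 2.59. The part of this array in the KO responses and in the counts given here was not tested. A p that misses the threshold does not show that the responses were alike. Without control day 2 264, the sample of intact RNA, 228 genes passed this test, and without control day 2 263, 74 did.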

How the data were processed

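Total RNA from liver was extracted with Trizol and labelled from the 3' end by in vitro transcription, per the labels' protocols. GCRMA produced the array values, per the submitters' processing notes, which give no version here. The authors deposited log2 values, from 1.33 to 15.54, and their normalization was kept (array medians 3.8 to 4.1). The array gives no depth, so the number of arrays limits precision. Of 22690 probe sets, 20380 had 1 gene symbol in the platform annotation and were used. The probe set with the highest mean stood for each of 12393 genes, and the test covered the 7320 genes that exceeded log2 4 on 3 or more arrays. Values at or under 4 are taken as near background.

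Contrasts were computed in 1 limma model of all 6 groups (limma 3.58.1, R 4.3.3, 15 residual degrees of freedom). P-values are two-sided, adjusted by Benjamini-Hochberg over all genes, with a threshold of 0.05, and errors are standard errors. Replicates are separate mice. The mouse number pairs samples of 1 animal, per the labels and the study's design text. In control the correlation of deviations from group means was 0.047 for mouse 263, 0.156 for mouse 265 and 0.119 for mouse 303. The mouse was therefore an alternative, as a random block (correlation 0.108) and as a fixed block. The model was tested on simulated data. Plots used matplotlib 3.10.9 (Python 3.11.15).

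The 44 gene lists (31 pathways, 13 cell types) held 1117 genes, of which 976 were on the array and 810 were tested; 15 entries were matched through synonyms. Genes named are the 12 largest rises and 12 largest falls whose groups did not overlap, up to 4 called members of each list, a set of fixed names, and the 10 largest rises and falls called both with all arrays and with mouse 264 alone; the text gives a subset. The comparison, the lists and these rules were chosen with earlier results of these data known. Alternatives were other filters, probe set rules, normalizations, variance models, groups fitted and blocks, the Gapdh or beta-actin difference as a covariate, and leaving out arrays.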

Additional observations from a re-analysis of the deposited data

How the results depend on the processing

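The number of genes called for control day 2 against day 0, 696, was within 1.5 times under no filter, a filter at log2 6, probe set means, quantile normalization, median centring, trended robust eBayes and both mouse blocks. It was 925 with the replicate block random, 696 of them shared, and 552 with it fixed, 356 of them shared. Every probe set on its own gave 1113. Smaller counts came from array weights (214), the 2 groups alone (27), the control groups alone (16), mouse 264 alone on day 2 (108), leaving out every array with a Gapdh difference above 1 (78), and the Gapdh (137) or beta-actin (88) covariate. Leaving out 1 array gave 173 (without day 2 265) to 1283 (without day 2 264). Without day 0 263, 265 or 303 there were 403, 179 and 240. The fits with fewer samples have fewer degrees of freedom; the cause of the other differences was not tested. The control minus KO response called 0 genes, 4 with no filter, 10 on probe set means, 3 on every probe set, 1 each with quantile normalization, median centring, trended robust eBayes and the beta-actin covariate, 8 with the random block, 9 with mouse 264 alone, 2 without every array of high Gapdh difference, and 0 to 228 leaving out 1 array. Ccnd1 turned sign to 0.26 with mouse 264 alone and without every array of high Gapdh difference, 0.34 and 0.4 with the Gapdh and beta-actin covariates, and 0.16 without day 2 265 (−1.37 to 0.16 leaving out 1 array).

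With 3 arrays a group, 2 of 3 day 2 arrays 3'-biased and no sham group, single values have wide errors. Probe position along each transcript was not used, so 3' bias could not be read gene by gene. Levels near log2 4 have no reliable order. Day 0 samples were lobes taken at surgery and day 2 samples were taken later from regenerating liver, and time of day, feeding and wounding go with day. P-values carry only the spread between mice, pooled for each gene over all 6 groups. The median standard deviation over genes was highest in control day 2 (0.475). In some genes other groups spread more. Prtn3 had standard deviations of 0.188 in control day 2 and 0.175 in control day 0, against 2.15 in KO day 0. For Arntl these were 0.335 and 0.527, against 2.17 in control day 6.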

Other observations

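Several genes outside the pathways described were among the most changed on day 2. Dnajc12, a co-chaperone of aromatic amino acid hydroxylases, was at 8.51, 10.97 and 10.43 on day 2, against 6.14, 6.17 and 6.13 on day 0 (3.82 ± 0.61, adjusted p = 0.00273). Cyb561, a transmembrane ascorbate-dependent reductase, was at 5.45, 5.84 and 8.63 on day 2, against 2.17, 2.05 and 2.07 on day 0 (at least 4.54 ± 1.0, adjusted p = 0.0124; 0.0644 without day 2 265, 0.201 with mouse 264 alone). Scara5, a ferritin receptor, was at 7.63, 9.28 and 11.3 on day 2, against 5.14, 5.22 and 6.21 on day 0 (3.88 ± 0.92, adjusted p = 0.0168; up to 0.0849 without day 2 265 or day 0 265, 0.13 with mouse 264 alone).

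Among falls, Inmt, an indole N-methyltransferase, was at 10.25, 5.15 and 4.87 on day 2, against 12.71, 12.76 and 13.06 on day 0 (−6.09 ± 1.42, adjusted p = 0.0157). Upp2, a uridine phosphorylase of liver, was at 7.91, 4.96 and 4.64 on day 2, against 11.55, 11.71 and 11.63 on day 0 (−5.79 ± 1.42, adjusted p = 0.0192). In both, mouse 263 was nearest to day 0, and both calls were lost (adjusted p up to 0.0741 and 0.0808) without day 2 265, day 0 265 or day 0 303. With mouse 264 alone Inmt was called and Upp2 (0.121) was not. Cnmd, chondromodulin, an inhibitor of blood vessel growth in cartilage, was at 6.52, 3.79 and 4.79 on day 2, against 8.32, 8.69 and 8.78 on day 0 (−3.56 ± 0.63, adjusted p = 0.00416). Sucnr1, the succinate receptor, was at 7.49, 5.45 and 5.35 on day 2, against 10.12, 9.44 and 9.93 on day 0 (−3.73 ± 0.72, adjusted p = 0.00585). Nat8, an N-acetyltransferase that completes mercapturic acids from glutathione conjugates, was lower by −3.11 ± 0.58 (adjusted p = 0.00531). These 3 were called without each array and with mouse 264 alone.

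Hsd3b3, a hydroxysteroid dehydrogenase, was at 7.2, 5.69 and 3.38 on day 2, against 8.98, 9.34 and 9.48 on day 0 (−3.84 ± 0.65, adjusted p = 0.00356), and was called without each array and with mouse 264 alone. Its male-biased relative Hsd3b5 was at 10.95, 7.86 and 3.05 on day 2, against 11.8, 12.24 and 12.07 on day 0, and did not pass (−4.75 ± 1.54, adjusted p = 0.0581); it passed without day 2 263 (0.00977) and when mouse was a random block (0.0433). Paralogs of this family can share probes. Serpina6, the plasma carrier of corticosteroids, was at 9.43, 9.1 and 6.01 on day 2, against 11.98, 12.01 and 12.01 on day 0 (−3.82 ± 0.84, adjusted p = 0.0121; 0.0605 without day 2 265, 0.186 with mouse 264 alone). Mme, neprilysin, a membrane peptidase, was at 5.48, 4.24 and 4.12 on day 2, against 8.35, 8.17 and 8.31 on day 0 (−3.66 ± 0.85, adjusted p = 0.0149; up to 0.0606 without day 2 265 or day 0 265, 0.127 with mouse 264 alone).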
